A study of Mus musculus with 45 samples.

Results

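Acetylation of histone H3 at lysine 9 (H3K9ac) was compared between hippocampus of tau transgenic mice and of wild type mice at 6 months of age. H3K9ac was measured by chromatin immunoprecipitation and sequencing (ChIP-seq). All 43341 autosomal domains of the 44165 in the study's common set were taken, each domain being a stretch of the genome enriched for the mark, and the 824 domains on the sex chromosomes were left aside. The comparison used 5 of the 23 H3K9ac libraries of the study, 2 labelled tau and 3 labelled wild type. The tau mice were transgenic for MAPT P301S, the tau gene with the P301S mutation, and the controls were wild type mice matched for age and sex. All mice at this age were females, and both groups were profiled with the same antibody lot. The labels name neither the transgenic line nor the promoter that drives the transgene, and they do not say whether tissue of several animals was pooled. P-values therefore rest on the spread between these libraries, which may be partly technical. For most domains that spread was a value shared over domains, not the domain's own. The same comparison at 11 months, used below to choose lists of domains, was made in males (3 libraries labelled tau and 3 labelled wild type), so age and sex cannot be told apart. Lists were also taken from CK-p25, a second model of the study, in which p25 is induced in female mice. Its libraries, 3 per group, came 2 weeks after induction (age 3.5 months) and 6 weeks after it (4.5 months), each beside CK control littermates.

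H3K9ac is placed on nucleosomes by histone acetyltransferases and removed by histone deacetylases. It marks active promoters and many enhancers, so its level at a site tends to follow the activity of nearby genes. Tau is a microtubule-binding protein of neurons. Mutations such as P301S cause a familial form of frontotemporal dementia, and mice that express the mutant protein develop tau aggregates and lose neurons with age. The hippocampus, a centre of memory formation, holds neurons and glia, and in whole tissue fewer cells of a type and less of the mark per cell cannot be told apart.

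Domains ran from 100 to 28979 bp, with the middle of the distribution at 771 bp. Grouped by width, there were 15207 under 500 bp, 10121 of 500 to 1000 bp, 9862 of 1000 to 2000 bp, 7442 of 2000 to 5000 bp and 709 of 5000 bp or more. The 5 libraries held 4.61 to 5.01 M reads each in these domains. Cross correlation, a ChIP quality measure given in the labels, was 0.254 and 0.231 in the libraries labelled tau replicates 1 and 2, and 0.242, 0.248 and 0.244 in wild type. A filter on low counts kept 41878 domains for testing. Of the 1463 that it removed, 1457 were under 500 bp wide, and none had more than 16.4 reads per library on average.

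One library went against its label at the domains that separated every other tau library from wild type. At 11 months, 5 domains within a stretch of chromosome 2 (build mm9, between 131729571 and 131765732) were much higher in all 3 libraries labelled tau. These domains were singled out after their values were seen, and they include the 4 domains with the smallest p among the gains at 11 months. At chr2:131729571-131731073 the normalised count was 45.4, 52.3 and 49.8 CPM (reads relative to all domain reads of the library) in the tau libraries at 11 months, against 2.5, 2.36 and 2.62 CPM in wild type. At 6 months the same domain had 46.1 CPM in the library labelled tau replicate 2 and 0.80 CPM in the library labelled tau replicate 1, with 3.01, 1.73 and 2.45 CPM in wild type. The library labelled tau replicate 2 was thus at the level of the older tau libraries, and the library labelled tau replicate 1 was below all 6 wild type libraries.

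The other 4 domains of the stretch showed the same split. At chr2:131734485-131739117, the highest of them, 544 reads were counted in the library labelled tau replicate 1 and 1916 in the library labelled tau replicate 2, against 509, 492 and 595 in wild type. At chr2:131731608-131733660 the reads were 22 and 256, against 12, 14 and 21. At chr2:131762926-131765732 they were 38 and 448, against 42, 57 and 40. The small domain chr2:131733848-131734219 had 5 and 61 reads, against 10, 2 and 4, and did not pass the filter in the fit of all 5 libraries. In these 4 the library labelled tau replicate 1 lay within the wild type range, below it, or, with 22 reads against at most 21, just above it. Between them, chr2:131757794-131759682 did not follow the label: it had 17.0 and 18.6 CPM in the libraries labelled tau replicates 1 and 2 against 17.0, 13.9 and 19.8 CPM in wild type. A small domain beside it, chr2:131760020-131760127 of 108 bp, had 3.40 and 1.95 CPM against 2.58, 1.95 and 1.23 CPM, and at 11 months 1.87, 2.96 and 1.69 CPM in tau against 1.33, 0.98 and 1.1 CPM in wild type.

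**Figure D1:**
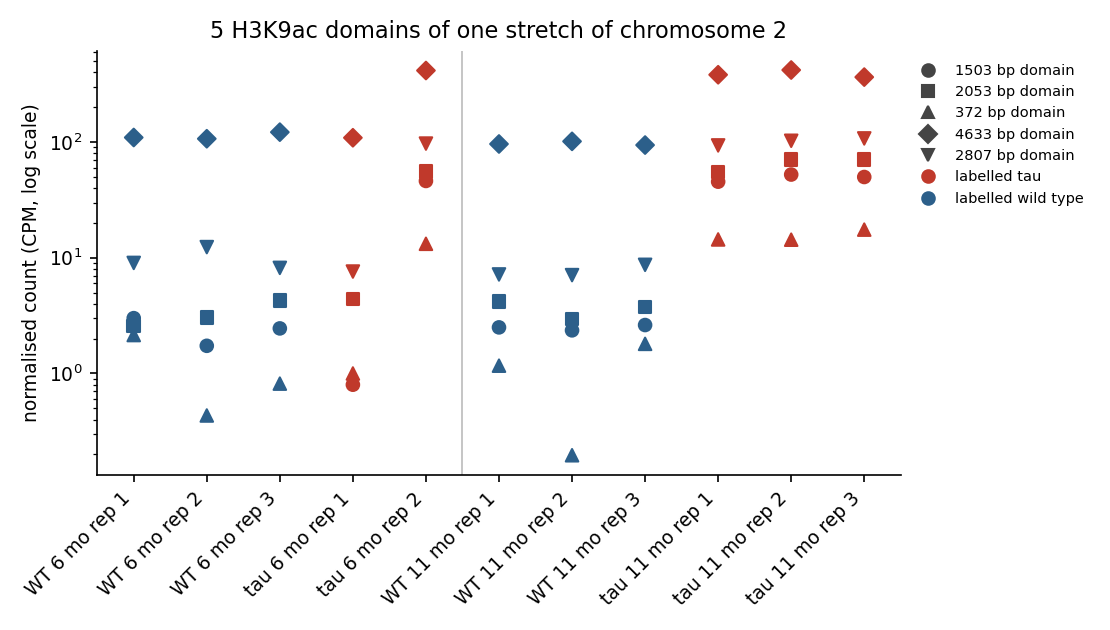
Normalised counts (CPM, log scale, scaled over all 23 libraries) of 5 domains of chromosome 2 in the 11 libraries of the tau series; each point is 1 library, each symbol 1 domain. The library labelled tau at 6 months, replicate 1, sits with the wild type libraries (0.80 CPM at the domain of 1503 bp), and the library labelled tau at 6 months, replicate 2, with the tau libraries of 11 months (46.1 CPM).

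A MAPT P301S line in wide use carries its transgene under the promoter of the mouse prion protein gene, a neuronal and broadly active gene of chromosome 2, but the labels do not say that this line was used. Whether the reads at these domains come from a transgene was not tested, nor whether the library labelled tau replicate 1 came from a mouse without it. The library was kept in the group its label gives, and the results are given with and without it. Without it 1 library labelled tau was compared with 3 of wild type, and the spread of that single library was taken to be that of the others.

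With all 5 libraries the domains of chromosome 2 did not pass the threshold. The log2 fold change at chr2:131734485-131739117 was 1.2 ± 0.76 (SE, adjusted p = 0.994, edgeR quasi-likelihood test). Without the library labelled tau replicate 1 it was 1.87 ± 0.06, and that of chr2:131729571-131731073 was 4.24 ± 0.28. All 5 domains then passed the threshold.

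The likeness of the libraries over all domains, those of chromosome 2 included, was taken pair by pair. For each pair of libraries, the chi-square of their counts per degree of freedom is 1 where they differ by sampling noise alone. It was 1.11 to 1.13 between wild type libraries, 1.31 between the 2 libraries labelled tau, and 1.08 to 1.32 between tau and wild type. At 11 months the values were 1.38 to 1.89 within groups and 2.06 to 4.43 between tau and wild type, without overlap, while at 6 months the ranges within and between groups overlapped. The values between wild type libraries and that of the pair labelled tau both lay within the range between tau and wild type. The low end of that range came from the library labelled tau replicate 1, which went against its label. The library labelled tau replicate 2 gave the 4 highest values at 6 months, 1.26 to 1.32, and the library labelled tau replicate 1 differed from wild type by 1.08 to 1.16. The gap was widest in domains of 5000 bp or more, where pairs with the library labelled tau replicate 2 had values of 2.17 to 2.85 and the other pairs 1.17 to 1.77. This library also had the lowest cross correlation of the 5, 0.231. The part of that in its distance from the others was not tested.

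**Figure D2:**
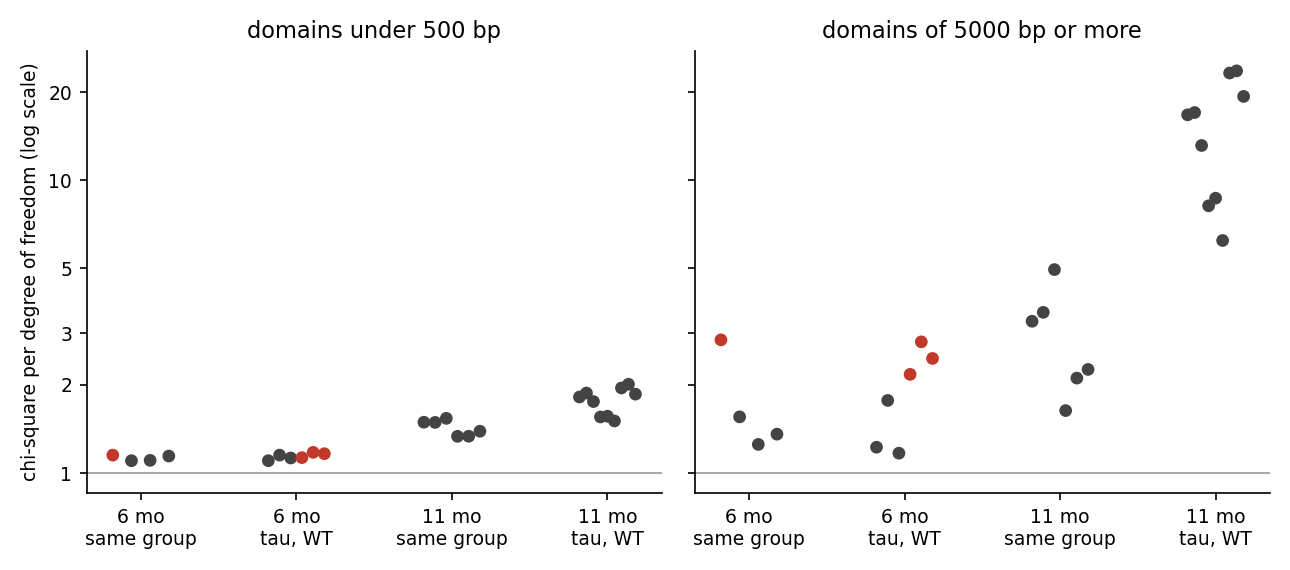
Chi-square per degree of freedom (log scale) between the counts of 2 libraries, for the narrowest and the widest domains; each point is 1 pair of libraries within a group or between tau and wild type, and pairs with the library labelled tau at 6 months, replicate 2, are red. In domains of 5000 bp or more the pairs between tau and wild type span 1.17 to 2.81 at 6 months and 6.23 to 23.7 at 11 months.

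With all 5 libraries, 1 of 41878 domains differed between tau and wild type (0.00239% called at an adjusted p under 0.05). This was chr19:37449731-37451461, a domain of 1731 bp. It had 381 and 389 reads in the libraries labelled tau replicates 1 and 2, against 288, 295 and 226 in wild type. Both libraries labelled tau were above all 3 wild type libraries, and wild type replicate 3 was the lowest. The normalised count was 80.3 ± 5.55 CPM in tau (SD, n = 2) and 57.5 ± 9.80 CPM in wild type (SD, n = 3). The log2 fold change was 0.48 ± 0.08 (SE), a 1.40-fold rise (95% interval 1.26 to 1.55), with an adjusted p of 1.9e-05 in the edgeR quasi-likelihood test. That SE used a spread shared over domains. With the spread estimated from all 11 libraries of the tau series the SE was 0.21. The call was lost without the library labelled tau replicate 2 (adjusted p = 0.191), without wild type replicate 3 (0.370), and when the spread was estimated from all 11 libraries of the tau series, where the adjusted p was over 0.99 and 0 domains were called, with 1392 at an unadjusted p under 0.05. DESeq2 called 0 domains as well, with 216 at an unadjusted p under 0.05, and limma-voom called 4.

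The called domain was 1 of 6 on chromosome 19, between 36991724 and 37451461, that were picked after their values were seen. All 6 had their lowest level of the 5 libraries in wild type replicate 3, and their highest level was 1.82 to 3.37 times their lowest. At chr19:36999362-37002507, the deepest of them, the reads were 812 and 756 in the libraries labelled tau, against 572, 595 and 406 in wild type. At chr19:36991724-36994694 they were 590 and 629, against 479, 453 and 329, and at chr19:37338360-37339548 they were 101 and 85, against 64, 66 and 40. A domain that lies among them had a nearly even level: chr19:37246154-37253326, of 7173 bp, had 1178 and 1055 reads against 1097, 1098 and 1061, a log2 fold change of 0.01 ± 0.05. In CPM its lowest level was in wild type replicate 3 as well, but its highest was only 1.10 times its lowest. The same held at chr19:37164249-37165837, where the highest was 1.26 times the lowest.

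Summed over the 6 domains, the normalised counts were 401 and 424 CPM in the libraries labelled tau, 319 and 323 CPM in wild type replicates 1 and 2, and 213 CPM in wild type replicate 3. The spread among wild type libraries alone was thus 1.51-fold. At 11 months the sums were 317, 214 and 212 CPM in tau and 293, 208 and 208 CPM in wild type, so libraries of both genotypes were found at the higher and at the lower level of the sum. The sum is mostly that of the deeper domains, and the 6 did not move together at 11 months: chr19:37340015-37340452, of 438 bp, had 4.30, 3.95 and 3.57 CPM in tau and 8.17, 6.49 and 5.08 CPM in wild type at that age, where at 6 months it had 11.8 and 11.9 CPM in the libraries labelled tau and 7.52, 9.10 and 5.11 CPM in wild type. In the CK-p25 series, with controls and p25 mice alike, the sums ran from 188 to 360 CPM. Differences in DNA copy number between mice were not tested, because counts of input DNA were not used here.

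**Figure D3:**
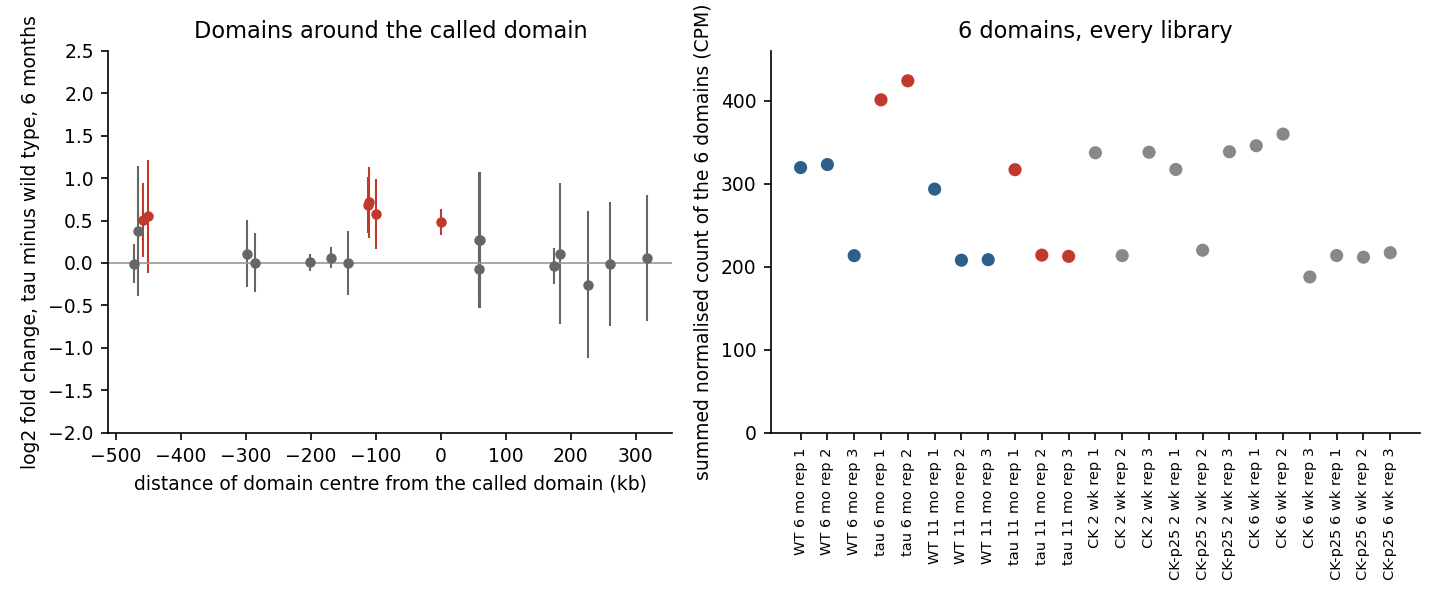
Left, log2 fold change of tau minus wild type at 6 months (bars, 95% intervals), against distance from the centre of the called domain. The 21 domains within 500 kb of it are shown. The 6 domains described in the text are red, and some of the others were also lowest in wild type replicate 3. Right, summed normalised count (CPM) of the 6 domains in every library: red for tau, blue for wild type, grey for the CK-p25 series. Wild type replicate 3 at 6 months (213 CPM) lies at the level of 2 tau and 2 wild type libraries of 11 months.

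Taken over all domains, gains and losses were about equally frequent. An unadjusted p under 0.05 was found for 2083 of 41878 domains (4.97%), 1040 higher (2.48%) and 1043 lower (2.49%) in tau. The 2 groups did not overlap in 8269 domains (19.7%), 4073 with tau higher (9.73%) and 4196 with tau lower (10%). The median log2 fold change was -0.0008, the 5th and 95th percentiles were -0.44 and 0.45, and this range was wider in narrow domains: -0.65 to 0.63 under 500 bp and -0.098 to 0.12 at 5000 bp or more. In units of their own standard error the log2 changes had an SD of 0.967 to 1.13 over the 5 width classes, where 1 is the value for noise alone. At 11 months the same SDs were 1.27 to 3.98.

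The domains that led the gains below the threshold were spread over 3 chromosomes. At chr19:45100818-45103946 the reads were 148 and 152, against 115, 81 and 102 in wild type (log2 fold change 0.57 ± 0.13, adjusted p = 0.217). At chr13:101358567-101359000, a domain of 434 bp, they were 48 and 32, against 16, 15 and 22 (1.14 ± 0.27, adjusted p = 0.238). At chr8:73361953-73363583 they were 275 and 293, against 232, 202 and 211 (0.37 ± 0.09, adjusted p = 0.238). Both libraries labelled tau were above all of wild type at these 3 domains, but ranked among the smallest p of 41878 they did not pass. The fifth, chr19:37338360-37339548, is among the 6 domains already described, and its adjusted p was 0.299.

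The leading losses did not pass either, with adjusted p-values of 0.376 to 0.384. At chr7:56533503-56533734, of 232 bp, 6 and 6 reads were found in the libraries labelled tau, against 22, 14 and 22 in wild type (-1.70 ± 0.48). At chr2:36058405-36059560 the reads were 68 and 52, against 88, 91 and 97 (-0.65 ± 0.17). At chr19:34995926-34997210 they were 120 and 99, against 135, 144 and 168 (-0.47 ± 0.13). At these 3 domains both libraries labelled tau lay below all of wild type. The libraries labelled tau disagreed more at the other two: chr4:140766448-140767311 had 30 and 64 reads against 85, 76 and 65, and chr7:71536188-71538421 had 342 and 258 against 340, 348 and 393.

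Leaving out single libraries brought other domains past the threshold. Without wild type replicate 1, 2 were called: the domain of chromosome 19 and chr17:56246712-56250351, which had 265 and 266 reads against 256, 174 and 192. Without wild type replicate 2, 9 were called, of which 5 lie in the stretch of chromosome 2 and 3 in that of chromosome 19. The ninth, chr6:47600528-47601781, had 346 and 103 reads in the libraries labelled tau and 503, 339 and 148 in wild type, a wide spread within both groups. The calls of chromosome 2 were made although the libraries labelled tau differ there. At chr2:131729571-131731073 they had 4 and 213 reads, yet the SE was 0.31 in this fit, against 2.36 with all 5 libraries. These calls therefore do not measure the spread between the libraries labelled tau. Without wild type replicate 3 only chr19:36999362-37002507 was called, and without the library labelled tau replicate 2 only chr4:140766448-140767311.

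Without the library labelled tau replicate 1, 39 of 42722 domains were called (0.0913%), 29 higher and 10 lower in the single library labelled tau. An unadjusted p under 0.05 was found for 2941 domains (6.88%), and for 19.2% of those of 5000 bp or more. Many of the calls were small changes in wide, deeply covered domains. Of the 39, 15 were 5000 bp or wider, 13 of them higher. The widest of those named here, chr16:43501922-43512699, had 1419 reads in the library labelled tau replicate 2 and 1281 in the library labelled tau replicate 1, against 1161, 1111 and 1229 in wild type (log2 fold change 0.31 ± 0.05). At chr9:48535728-48546269 there were 903 and 689 reads, against 678, 530 and 726 (0.51 ± 0.07), and at chr14:9137412-9143244 there were 525 and 411, against 374, 372 and 402 (0.48 ± 0.08). At these 2 the library labelled tau replicate 2 stood alone, since the library labelled tau replicate 1 was within or close to the wild type range.

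The smallest domain of this group outside chromosome 2, chr4:116871820-116872389, had 32 reads in the library labelled tau replicate 2 and 1 in the library labelled tau replicate 1, against 5, 2 and 6 in wild type. Of the 39 domains, 14 (35.9%) were also called at 11 months in the same direction, 5 of them those of chromosome 2, and 4 in the opposite direction. Over all domains 9.95% were called at 11 months, but that share was higher in wide domains: of the 709 of 5000 bp or more, 52 were higher and 284 lower at that age. The 35.9% is therefore no measure of an excess. Calls from 1 library against 3 cannot tell that library from its group.

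What size of change the 5 libraries could exclude depended on the reads in a domain, and so on its width. Counts were scaled to the domain reads of each library, so each change is relative to the other domains. A rise or fall shared by all domains could not be seen. A change was taken as excluded where both one-sided tests of the log2 fold change against that size, in either direction, passed at an adjusted p under 0.05. A 2-fold change was excluded for 35937 domains (85.8%), a 1.5-fold change for 19603 (46.8%) and a 1.2-fold change for 5410 (12.9%). With the library labelled tau replicate 1 left out the counts were 28372 (66.4%) for 2-fold and 14535 (34%) for 1.5-fold, and 1.2-fold was excluded in 0.365% of domains. These counts depend on a domain's reads, its estimate and a spread that most domains shared. With the DESeq2 Wald test and all 5 libraries, 26949 domains excluded a 2-fold change. None of these counts shows that a domain had no change.

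By width, a 2-fold change was excluded for 60.9% of domains under 500 bp, 94.7% of those of 500 to 1000 bp and 99.8% of those of 1000 to 2000 bp. In domains of 2000 to 5000 bp all but 5 excluded it, and in those of 5000 bp or more all 709 did. A 1.5-fold change was excluded in 0.575%, 29.7%, 85.5%, 99.2% and 99.9% of the same 5 classes. For a 1.2-fold change the shares were 0% under 500 bp, 0.0297% at 500 to 1000 bp, 9.38% at 1000 to 2000 bp, 51.9% at 2000 to 5000 bp and 87.2% at 5000 bp or more. Narrow domains were thus open to changes that would have been seen in wide ones. The largest fold change inside a domain's 95% interval had a median of 2.03 under 500 bp, 1.59 at 500 to 1000 bp, 1.30 at 1000 to 2000 bp, 1.16 at 2000 to 5000 bp and 1.12 at 5000 bp or more.

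By depth, in mean reads per library, 13020 tested domains had under 20 reads, 11097 had 20 to 50, 4822 had 50 to 100, 7830 had 100 to 300 and 5109 had 300 or more. A 2-fold change was excluded for 58.4% of the domains under 20 reads and 95.4% of those with 20 to 50. In the 3 deeper classes only 5, 3 and 2 domains did not exclude it. A 1.5-fold change was excluded in 0% of domains under 20 reads, 24.6% at 20 to 50, 82.5% at 50 to 100, 99.5% at 100 to 300 and 99.9% at 300 or more. A 1.2-fold change was excluded in none of the domains under 100 reads, in 17.8% of those with 100 to 300 and in 78.6% of those with 300 or more. Within the class of 50 to 100 reads, width made little difference: 1.5-fold was excluded for 81.4% of domains of 500 to 1000 bp, 82.3% of those of 1000 to 2000 bp and 87.1% of those of 2000 to 5000 bp. Within the class of 20 to 50 reads the shares were 4.19% under 500 bp, 23.7% at 500 to 1000 bp and 48.6% at 1000 to 2000 bp. Depth rose with width inside this class, with median reads of 21.8, 28.8 and 42.2, so width and depth cannot be told apart there.

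**Figure D4:**
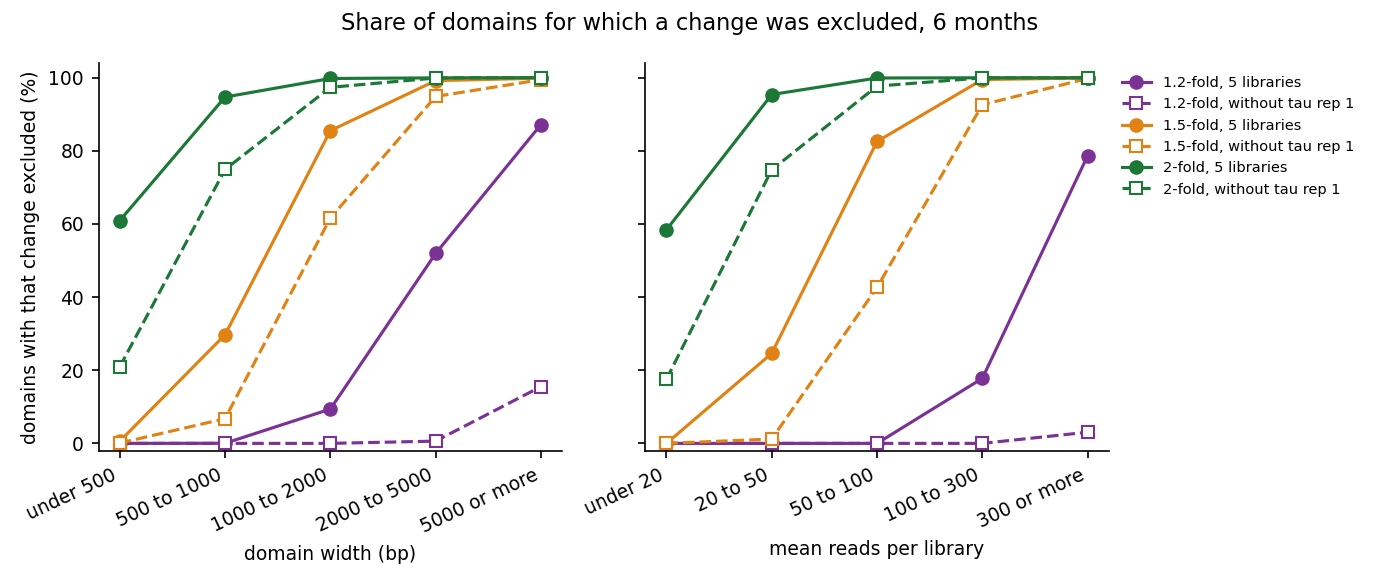
Percent of tested domains for which a change of 1.2, 1.5 or 2-fold between tau and wild type at 6 months was excluded, by width (left, bp) and by mean reads per library (right); filled points use all 5 libraries and open squares leave out the library labelled tau replicate 1. A 1.2-fold change was excluded in 87.2% of domains of 5000 bp or more with all 5 libraries and in 15.5% without that library.

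When the library labelled tau replicate 1 was left out, the same order held at lower precision. A 2-fold change was excluded in 20.9% of domains under 500 bp, 74.9% at 500 to 1000 bp, 97.3% at 1000 to 2000 bp, 99.9% at 2000 to 5000 bp and all of those of 5000 bp or more. A 1.5-fold change was excluded in 0.0822%, 6.76%, 61.6%, 94.9% and 99.4% of these classes. A 1.2-fold change, which the 5 libraries excluded in 87.2% of the widest domains, was excluded in 15.5% of them. In domains with 300 reads or more that share was 3.05%.

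The widest and deepest domains were measured most closely. The widest, chr13:83852519-83881497, spans 28979 bp and was also the deepest. It had 848 and 824 CPM in the libraries labelled tau replicates 1 and 2 and 833, 819 and 809 CPM in wild type, so the groups overlapped. Its log2 fold change was 0.03 ± 0.04, and the largest fold inside its interval was 1.08. The next in width, chr1:134266917-134288202, of 21286 bp, had 345 and 389 CPM against 344, 363 and 331 CPM (0.08 ± 0.05). At chr9:57786299-57803593, of 17295 bp, the values were 285 and 308 CPM against 305, 271 and 288 CPM (0.04 ± 0.05). All 3 excluded a 1.2-fold change.

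The other two of the deepest domains, chr5:143572236-143585976 and chr2:44958473-44974210, excluded a 1.2-fold change as well. The first had 674 and 694 CPM in the libraries labelled tau, against 699, 714 and 677 CPM in wild type (log2 fold change -0.03 ± 0.04), and the second 498 and 561 CPM against 534, 558 and 539 CPM (-0.04 ± 0.04). In both the groups overlapped.

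The share of reads in wide domains did not separate the groups at this age. Domains of 5000 bp or more took 10.7% and 10.8% of the autosomal domain reads in the libraries labelled tau replicates 1 and 2, and 10.8%, 10.6% and 10.6% in wild type. The difference of 0.080 percentage points (10.8% ± 0.110 (SD, n = 2) in tau, 10.7% ± 0.093 (SD, n = 3) in wild type) gave p = 0.4 in a two-sided exact permutation test and 1 after adjustment over the 5 width classes. With 2 libraries against 3 this test cannot give a p under 0.2. With the library labelled tau replicate 1 left out the difference was 0.16 percentage points. The other 4 classes differed by -0.11 to 0.049 percentage points, with exact permutation p-values of 0.4 to 1. At 11 months the widest class took 9.52% ± 0.118 in tau (SD, n = 3) and 10.4% ± 0.204 in wild type (SD, n = 3), without overlap. The smallest p that 3 libraries against 3 allow is 0.1, which was the exact permutation p there (0.125 adjusted).

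Sums over larger regions were measured more tightly. In 1 Mb bins, edgeR called 0 of 2157 bins (0% called), with 100 (4.64%) at an unadjusted p under 0.05, and DESeq2 called 0. A 1.2-fold change was excluded for 1915 bins (88.8%) and a 1.5-fold change for 2093 (97%). Without the library labelled tau replicate 1, 37 of 2160 bins passed the threshold (1.71%), 28 higher and 9 lower, led by the bin of chromosome 2 that holds the stretch already described, and 1.2-fold was excluded for 1794 bins (83.1%). The leading gain with all libraries, chromosome 19 from 36 to 37 Mb, had 599 and 616 CPM against 575, 568 and 530 CPM (log2 fold change 0.12 ± 0.03, adjusted p = 0.247) and holds part of the 6 domains of that chromosome. The next, chromosome 8 from 122 to 123 Mb, had 1188 and 1204 CPM against 1123, 1119 and 1139 CPM (0.09 ± 0.02, adjusted p = 0.247). At both the groups did not overlap.

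The leading losses among bins were on chromosome 2. From 136 to 137 Mb the sums were 432 and 417 CPM in the libraries labelled tau, against 476, 464 and 445 CPM in wild type (-0.12 ± 0.04, adjusted p = 0.337). From 36 to 37 Mb, a bin of 5 domains, they were 35.3 and 32.1 CPM, against 41.0, 44.0 and 43.8 CPM (-0.35 ± 0.11, adjusted p = 0.566). Summed over whole chromosomes, edgeR called 0 of 19 autosomes (0% called), with none at an unadjusted p under 0.05 and log2 changes of -0.0039 to 0.0055. The largest fold inside any chromosome's 95% interval was 1.01, again relative to the other domains. At 11 months 9 of the 19 were called, with log2 changes of -0.022 to 0.041.

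Domains that differ at 11 months showed little of that difference at 6 months when both libraries labelled tau were used. The lists were chosen on the 11-month libraries: 1568 domains were higher in tau (3.74% called) and 2607 lower (6.21%). Their median log2 changes at 11 months, 0.61 and -0.56, are given as a description, since they chose the lists. At 6 months 1499 of the first list were tested, with a median log2 change of 0.0036 and 50.7% above 0. Of the second, 2603 were tested, with a median of -0.0026 and 49.1% above 0. Over all domains tested the median was -0.0008 and 49.8% were above 0. An unadjusted p under 0.05 was found for 5.87% and 6.53% of the 2 lists, against 4.97% of all domains. The 6-month interval of 95% left out the domain's own 11-month change in 89.4% of the first list and 96.5% of the second. Those changes chose the lists and were used without their own error, so these shares are a description. The interaction test between the ages, described below, passed for 25.6% and 49.9% of the tested domains of the 2 lists.

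**Figure D5:**
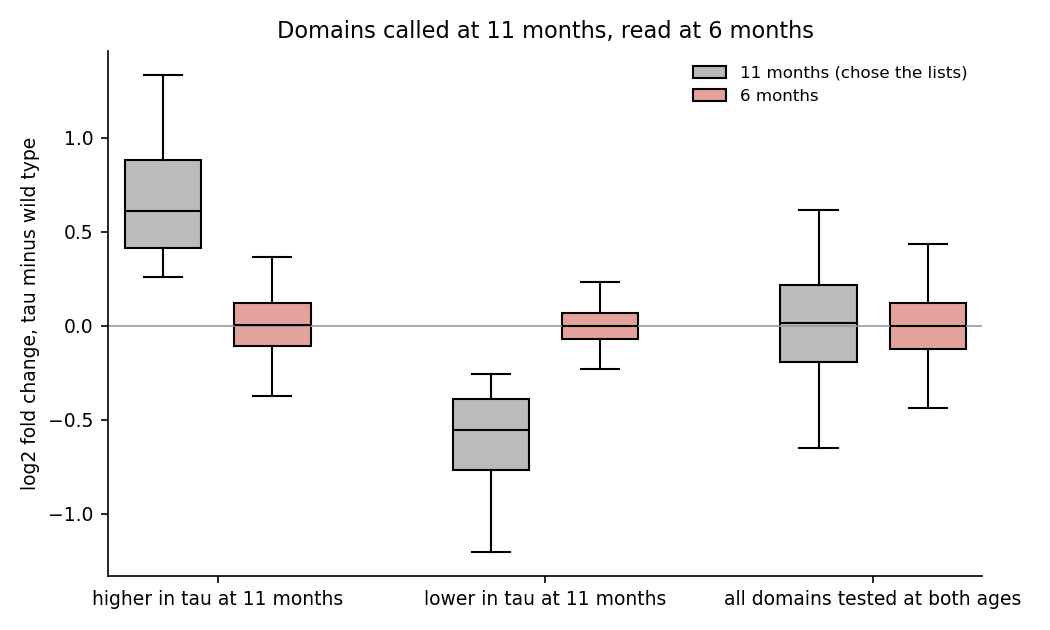
Log2 fold change of tau minus wild type for domains called higher or lower in tau at 11 months and for all domains tested at both ages, at 11 months (grey) and at 6 months (pink); boxes are quartiles with the median, whiskers the 5th and 95th percentiles. The medians at 6 months, 0.0036 and -0.0026, lie beside that of all domains.

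The 2 libraries labelled tau had medians of opposite sign at these lists. Relative to the mean of the wild type libraries, the list higher at 11 months had a median of -0.042 in the library labelled tau replicate 1 and 0.042 in the library labelled tau replicate 2, with -0.023, 0.015 and -0.0007 in wild type. For the list lower at 11 months the medians were 0.025 and -0.039 in the libraries labelled tau, and 0.033, -0.023 and -0.0080 in wild type. The library labelled tau replicate 2 was the extreme of the 5 in the direction of the older tau mice in both lists, by a margin smaller than the range of wild type. Without the library labelled tau replicate 1 the medians were 0.042 and -0.041, beside -0.0070 over all domains, and 57.7% and 39.3% of the lists were above 0, beside 48.8%. Cross correlation was lower in tau than in wild type at 11 months (0.228 ± 0.026 against 0.313 ± 0.025, SD, n = 3 each), and its part in these medians was not tested.

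The leading domains of 11 months can be followed one by one. Of the leading losses at 11 months, chr9:106554205-106560104 had 101 and 102 CPM in the libraries labelled tau at 6 months, against 111, 99.7 and 97.4 CPM in wild type, a log2 fold change of -0.01 ± 0.07 where it was -1.13 ± 0.08 at 11 months. At chr2:28061404-28068757 the 6-month values were 178 and 169 CPM against 170, 154 and 164 CPM (0.09 ± 0.06, with -1.01 ± 0.07 at 11 months). At chr15:98633780-98640310 they were 160 and 141 CPM against 165, 162 and 152 CPM (-0.08 ± 0.06, with -0.84 ± 0.07). These 3 excluded a 1.2-fold change at 6 months. The remaining 2 had positive changes at 6 months that did not pass the threshold: chr1:122236851-122240056 changed by 0.20 ± 0.09 and chr9:58043494-58053100 by 0.12 ± 0.06, with -1.32 ± 0.10 and -0.83 ± 0.06 at 11 months. The one leading gain at 11 months outside chromosome 2, chr10:79535676-79539111, had 24.4 and 25.8 CPM against 24.3, 23.1 and 22.7 CPM (0.10 ± 0.13, with 1.34 ± 0.11 at 11 months).

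Whether the effect of the transgene differed between the ages was tested with an interaction term over the 11 libraries of the tau series. It differed for 1805 of 43282 domains (4.17% called), with the log2 change more positive at 11 months in 449 and more negative in 1356. The number was 934 without the library labelled tau replicate 1 and 376 with cross correlation as a covariate. The median log2 change of all domains at 11 months ran from 0.045 under 500 bp to -0.12 at 5000 bp or more, and at 6 months it was 0.0090 under 500 bp and 0.010 at 5000 bp or more. Of the 284 domains of 5000 bp or more that were lower at 11 months, 53.5% were above 0 at 6 months. That share was 55.7% over all domains of this width. All 284 excluded a 1.5-fold change, and 197 differed between the ages. The 52 domains of that width that were higher at 11 months had a median log2 change of 0.043 at 6 months. Of these 52, 65.4% were above 0 and 17.3% had an unadjusted p under 0.05 (55.7% and 7.33% of all domains of that width). Their median relative to the mean of the wild type libraries was -0.049 in the library labelled tau replicate 1 and 0.11 in the library labelled tau replicate 2, with -0.0075, 0.0026 and -0.013 in wild type, so the higher level was that of 1 library.

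Domains that changed in the CK-p25 model had medians close to 0 at 6 months in tau mice. That model was profiled with another antibody lot, and it shares no library with this comparison. The lists held 634 domains higher and 304 lower in CK-p25 at 2 weeks (2.66% called in all), and 466 higher and 467 lower at 6 weeks (3.15%). Their median log2 changes in tau at 6 months were -0.0069, 0.011, -0.0084 and 0.00092 in that order. With the library labelled tau replicate 1 left out they were 0.023, -0.015, 0.026 and -0.029, beside -0.0070 over all domains. An unadjusted p under 0.05 was found for 5.15%, 7.57%, 5.45% and 7.07% of them, against 4.97% of all domains. A 1.5-fold change was excluded for 56.5% and 95.1% of the lists of 2 weeks, the second being wider (median 3379 bp) and deeper.

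The 3 leading gains of CK-p25 at 2 weeks, chr16:23609351-23612236, chr11:48682057-48686814 and chr5:115346882-115348607, changed by 0.07 ± 0.13, -0.01 ± 0.07 and -0.01 ± 0.18 on the log2 scale in tau at 6 months. Of the leading losses, chr11:98185122-98191515 had 162 and 140 CPM against 157, 145 and 150 CPM (0.00 ± 0.06), and chr9:106554205-106560104 is described above. The third, chr19:10528976-10531855, had 59.9 and 79.2 CPM in the libraries labelled tau replicates 1 and 2, against 60.9, 55.5 and 61.4 CPM in wild type (0.22 ± 0.08, adjusted p = 0.896). Its high value was in the library labelled tau replicate 2 alone.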

How the data were processed

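The authors deposited unscaled counts of reads in each domain. Per the submitters' processing notes the tools were BWA, Picard 1.1175 and MACS2 and the build was mm9, with no parameters stated. The labels' protocols give single-end reads. The common domains were called with input DNA as background, per the design text of the series. The score column of the deposited domain list was 0 throughout and unused. Coordinates are 1-based. No mm9 annotation was used, so domains carry no gene names and no sequence is shown.

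Counts were tested with edgeR 4.0.16 (R 4.3.3): robust quasi-likelihood F test, TMM factors, filterByExpr, Benjamini-Hochberg adjustment over all domains tested, threshold 0.05. The prior degrees of freedom were infinite, so most domains shared the spread of the trend (biological coefficient of variation 3.12%; 5.87% at 11 months), and intervals rest on that. Exclusion used 2 one-sided tests at 1.2, 1.5 and 2-fold. For chromosomes and bins of 5 Mb the dispersion was set to 0, leaving a quasi-Poisson model. Chi-squares left out domains under 20 reads in both libraries together. Exact permutation p-values are 2 times the smaller tail over 10 splits. Alternatives were DESeq2 1.42.0, limma 3.58.1, other scalings, no filter, all 11 libraries, a replicate block, cross correlation as a covariate and each library left out. Scripts were tested on simulated data. Named domains were those with the 5 smallest p in each direction, those called with a library left out (up to 10 a fit), the 3 widest and deepest, and the leading ones of the other comparisons. The comparison, members and lists were chosen with earlier results of these data known.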

Additional observations from a re-analysis of the deposited data

Results flagged for a closer look

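The difference between the effect of tau at 11 and at 6 months was tested with an interaction term and found for 1805 domains (934 without the library labelled tau replicate 1); age and sex change together in it. Among the domains named in the report it passed for 17, which were picked for small p-values at one of the ages or in CK-p25, or for their width, so the sizes are a description. On the log2 scale, 11 minus 6 months, the difference was -1.12 at chr9:106554205-106560104, -1.53 at chr1:122236851-122240056, -0.96 at chr9:58043494-58053100, -0.76 at chr15:98633780-98640310, -1.10 at chr2:28061404-28068757 and 1.23 at chr10:79535676-79539111, all leading domains of 11 months. Among the leading domains of 6 months it was -1.53 at chr13:101358567-101359000, 2.60 at chr7:56533503-56533734, 1.01 at chr4:140766448-140767311 and 0.63 at chr19:34995926-34997210. Among the widest domains it was -0.39 at chr13:83852519-83881497 and -0.28 at chr1:134266917-134288202, and it was -0.51 at chr16:43501922-43512699. Among the leading domains of CK-p25 at 2 weeks it was 1.09 at chr16:23609351-23612236, 0.58 at chr11:48682057-48686814, -0.87 at chr11:98185122-98191515 and -1.47 at chr19:10528976-10531855.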

How the results depend on the processing

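The count of called domains, 1 with all 5 libraries, was 0 with the DESeq2 Wald test, 0 with all 11 libraries, 4 with limma-voom, 9 with cross correlation as a covariate and 1 to 39 with a library left out. Of 1 Mb bins 0 were called, 3 with that covariate and 0 to 37 with a library left out; with bins of 5 Mb, of which there are 503, 1 was called and 501 excluded a 1.2-fold change. Leaving out a library gave 28372 to 33680 domains that exclude a 2-fold change, 14535 to 17524 for 1.5-fold, 1794 to 1890 bins for 1.2-fold, 0 called chromosomes, and a difference in the share of reads in the widest domains of 0.0026 to 0.16 percentage points. With DESeq2, 26949 domains excluded a 2-fold and 13764 a 1.5-fold change. Domains whose effect differs between the ages, 1805, were 376 with the covariate, 985 with DESeq2 and 934 to 2515 with a library left out. The 6-month medians of the lists higher and lower at 11 months ran from -0.042 to 0.042 and from -0.041 to 0.026 with a library left out. Both changed sign without the library labelled tau replicate 2 and also without wild type replicate 1 (-0.010 and 0.013), so their sign depends on which libraries are used. Replicate numbers do not pair the libraries (correlations of deviations -0.0091 to 0.0091). With a replicate block 1 domain was called, chr19:36999362-37002507 (adjusted p = 0.0132, edgeR), and the domain called without the block had an adjusted p of 0.458; 33261 and 17122 domains excluded a 2-fold and a 1.5-fold change, and 0 bins were called. Domains under 20 reads per library could not exclude a 1.5-fold change at this depth.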
